A study of Mus musculus with 30 samples.

Results

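Gene expression was compared between neutrophils and macrophages sorted from the ischemic hemisphere of knockout (KO) mice, which lacked the receptor TREM1. The comparison used the 5 arrays labelled as KO neutrophils and the 6 labelled as KO macrophages, 11 of the 30 arrays of the series, and the groups were taken from genotype and cell type as labelled. All mice were C57BL/6 males, 8 to 10 weeks old, in which stroke was modelled by closing the middle cerebral artery for 45 min, and the cells were taken 48 h after reperfusion. Both cell types were sorted as CD45Hi CD11b+ cells, and Ly6G then set the KO neutrophils (positive) apart from the KO macrophages (negative). Both groups carried the TREM1 -/- genotype, so the comparison shows how the cell types differed without TREM1 and does not measure the effect of its loss. Where wild-type (WT) values are given, they come from 4 WT neutrophil and 3 WT macrophage arrays of TREM1 +/+ mice of the same strain, sex, age and treatment, and 6 KO microglia arrays stand beside the marker lists. The labels call the arrays biological replicates. They do not say which part of Trem1 was deleted, whether mice were pooled, or whether cells of both types came from the same mouse. The p-values and intervals rest on spread between arrays, estimated for each gene over all 30 arrays and not only the 11 compared.

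Neutrophils are short-lived granulocytes made in the bone marrow, and they are among the first blood cells to enter the brain after a stroke. They carry preformed granules, produce oxygen radicals and read chemokines through receptors such as CXCR2. The macrophages of the ischemic hemisphere come largely from blood monocytes that enter through the receptor CCR2, take up dead cells and lipid, and present antigen on MHC class II. The Ly6G negative gate can also hold monocytes and dendritic cells.

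Each array gave 1 intensity for each of 22103 transcript clusters, the units in which this Affymetrix Clariom array summarises a gene. Levels are log2 intensities, and a difference is the KO neutrophil mean minus the KO macrophage mean on that scale, so that 1 unit is a 2-fold difference and a positive value means higher in KO neutrophils. The median intensity was 89.3 to 97.9 on the KO neutrophil arrays and 85.1 to 91.1 on the KO macrophage arrays. Of each array's total intensity, 24.3% to 25.9% in KO neutrophils and 19.9% to 20.6% in KO macrophages came from its 100 brightest clusters. The first principal component of the 11 arrays held 57.4% of the variance and separated the groups, with KO neutrophils from 42.8 to 84.2 and KO macrophages from -56.7 to -46.3. KO neutrophil 5 stood apart on the second component, which held 10.1%, at -62.8. No detection calls were given, so a level below 6.69, the median of all cluster means, was not shown to lie above background, and differences that rest on such a level are approximate.

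Markers of the sorted cells were checked first. The mean of 24 measured neutrophil markers was 12.62 to 14.06 on the KO neutrophil arrays and 8.08 to 8.86 on the KO macrophage arrays, against 6.58 to 7.83 in KO microglia. Of 20 measured monocyte and macrophage markers the mean was 13.08 to 13.57 in KO neutrophils and 14.36 to 14.57 in KO macrophages, and none of the 20 lay below 6.69 on average in KO neutrophils. In WT neutrophils the same mean was 12.18 to 12.69. The neutrophil label thus matched its defining genes, but the KO neutrophil arrays also carried signal of genes that define mononuclear phagocytes. In RNA from many cells at once, a small number of cells of another type and a low level per cell cannot be told apart. Ly6g, the sorting antigen of neutrophils, and the macrophage marker Cd68 were not measured among the named clusters. Trem1 itself read 15.12, 16.39, 16.15, 16.31 and 15.93 in KO neutrophils and 12.81 to 14.39 (median 13.37) in KO macrophages. No array of 1 group overlapped the other, and the difference was 2.51 (SE 0.37, adjusted p = 7.22e-06). The mean of Trem1 was 15.98 in KO neutrophils and 17.20 in WT neutrophils, and 13.47 in KO macrophages and 13.96 in WT macrophages, so the deleted gene still gave bright signal in KO. Since the probes may lie outside the deleted part, these levels check nothing about the genotype.

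In the fit of limma over all 30 arrays, 7008 of 22103 clusters (31.7%) differed between KO neutrophils and KO macrophages at a Benjamini-Hochberg adjusted p under 0.05. Of these, 3513 were higher in KO neutrophils (15.9%) and 3495 lower (15.8%), and the median difference of all clusters was -0.01. Centring each array on its median moved that median by -0.09 and the calls to 2762 higher and 4393 lower, so the share of higher calls was 38.6% in place of 50.1%. A difference of at least 2-fold was called for 1019 clusters higher (4.61%) and 1325 lower (5.99%). In 4710 clusters (21.3%) no array of 1 group overlapped the other, and 4299 of them were called. Every count of list members below is read against these shares.

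Among the largest differences were those of a cytokine, a calcium-binding protein and 2 chains of MHC class II. Il1f9, which encodes the IL-1 family cytokine IL-36 gamma, read 14.24, 15.48, 15.42, 15.05 and 16.68 in KO neutrophils and 5.42 to 6.45 (median 6.03) in KO macrophages, a difference of 9.40 (SE 0.34, adjusted p = 2e-18). S100a9, a calcium-binding subunit of calprotectin, read 16.54, 17.27, 17.14, 16.74 and 17.28 in KO neutrophils and 6.77 to 9.55 (median 8.08) in KO macrophages, a difference of 8.89 (SE 0.69, adjusted p = 4.83e-11), or 474-fold. All 5 KO neutrophil arrays lay far above all 6 KO macrophage arrays for both genes, and the macrophage level of Il1f9 was below 6.69. H2-Eb1, a beta chain of MHC class II, read 9.02, 6.97, 11.20, 8.33 and 6.94 in KO neutrophils and 15.79 to 16.50 (median 16.23) in KO macrophages, a difference of -7.71 (SE 0.53, adjusted p = 2.73e-12). H2-Ab1, the beta chain of the other class II molecule of the mouse, read 8.09, 7.25, 10.72, 8.75 and 7.71 in KO neutrophils and 15.56 to 16.41 (median 16.12) in KO macrophages, with a difference of -7.58 (SE 0.44, adjusted p = 6.85e-14). Here the macrophage arrays were uniformly bright, while the neutrophil arrays spread widely and KO neutrophil 3 was the highest of them for both chains.

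**Figure D1:**
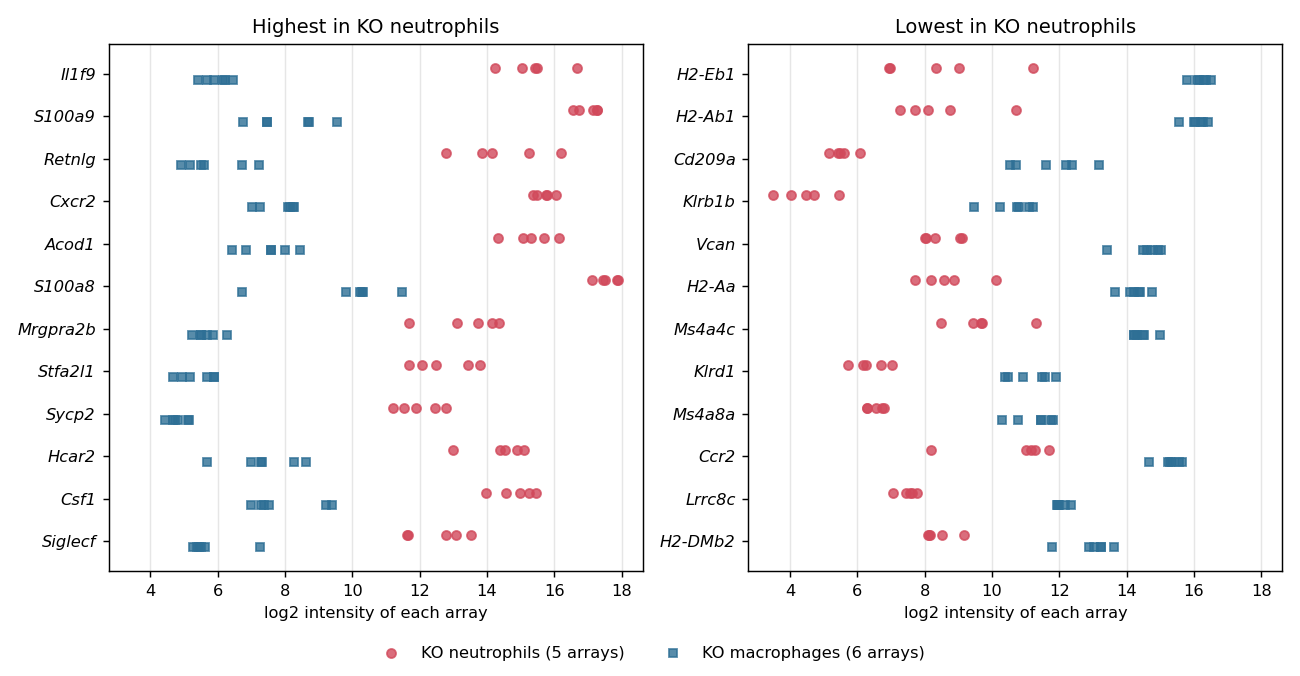
Log2 intensity (x axis) of the 12 genes with the highest (left) and the 12 with the lowest (right) difference, 1 point per array, with KO neutrophils (circles, 5 arrays) drawn above KO macrophages (squares, 6 arrays) in each row. The groups do not overlap for any of the 24 genes, which were chosen for that and for their size, and levels of different genes are not to be set against each other.

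The other genes highest in KO neutrophils included receptors and secreted proteins. Retnlg, a resistin-like protein of mouse neutrophils, differed by 8.59, S100a8, the partner of S100a9, by 7.76, and Cxcr2, the receptor for the chemokines that draw neutrophils, by 7.85. Acod1, the enzyme that makes itaconate, was higher by 7.83, and Hcar2, the receptor for niacin and hydroxybutyrate, by 7.02. Csf1, the growth factor of macrophages, read 13.97, 14.99, 14.58, 15.26 and 15.46 in KO neutrophils and 6.99 to 9.40 (median 7.45) in KO macrophages, a difference of 6.89. Its neutrophil arrays lay together and well above the macrophage arrays, whose own values spread by more than 2 units. Siglecf, a sialic acid-binding lectin known from eosinophils and from neutrophils in tissue, was higher by 6.79, with 5 of the 6 KO macrophage arrays between 5.27 and 5.64 and KO macrophage 2 at 7.25. The other 3 were Mrgpra2b, a Mas-related receptor (7.73), the stefin Stfa2l1 (7.32), and Sycp2, a protein of meiotic chromosomes (7.16). Adjusted p lay between 1.25e-18 for Cxcr2 and 5.99e-08 for S100a8. The KO macrophage means of Retnlg, Mrgpra2b, Stfa2l1, Sycp2 and Siglecf lay below 6.69.

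Among the other genes lowest in KO neutrophils were markers of recruited monocytes. Ccr2 read 11.01, 8.18, 11.27, 11.16 and 11.70 in KO neutrophils and 14.66 to 15.64 (median 15.32) in KO macrophages, a difference of -4.62 (SE 0.54, adjusted p = 1.62e-07). KO neutrophil 2 was far below the other neutrophil arrays, all of which were below the macrophages. Vcan, the proteoglycan versican made by monocytes, differed by -6.03, and Cd209a, a lectin of monocyte-derived dendritic cells, by -6.21. Klrb1b (-6.16) and Klrd1 (-4.74), lectin-like receptors best known from natural killer cells, were also low. Of 9 measured natural killer markers, 2 were lower and none higher. Group means of all 9 were below 6.69, with Ncr1, Nkg7, Prf1 and Gzma at 3.54 to 4.73. The part of natural killer cells in these differences was not tested. Ms4a4c (-4.74) and Ms4a8a (-4.74) belong to a family of membrane proteins, and Lrrc8c (-4.57) forms part of a volume-regulated anion channel. The class II genes H2-Aa (-5.55) and H2-DMb2 (-4.55) completed the 12. Adjusted p was 1.62e-07 or less for all of them, and KO neutrophil means of Cd209a, Klrb1b, Klrd1 and Ms4a8a were below 6.69.

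Neutrophil markers were higher in KO neutrophils almost throughout. Of 24 measured, 23 were called higher and none lower, and 21 had no overlap between the groups, with a median difference of 5.24 against -0.01 for all clusters. The stefins, inhibitors of cysteine proteases that mouse neutrophils express from a cluster on chromosome 16, were among them: Stfa1 (5.599, SE 0.28), Stfa2 (6.15, SE 0.45), Stfa2l1 (7.32, SE 0.37), Stfa3 (0.70, SE 0.25) and Cstdc4 (6.03, SE 0.33). They are near-identical copies, so a cluster named for 1 stefin may read another. Stfa2 read 10.15, 12.50, 11.13, 10.81 and 12.56 in KO neutrophils and 4.80 to 5.74 (median 5.29) in KO macrophages. Its groups did not overlap, whereas Stfa3 had the smallest difference of the 5 and its groups overlapped. The call of Stfa3 ended without KO neutrophil 2, 4 or 5 or KO macrophage 3, 4 or 5, with quantile normalization, or with each array centred on its median (adjusted p from 0.0502 to 0.12). Mmp8, the neutrophil collagenase, was the marker that did not pass, at 13.66 ± 0.83 in KO neutrophils and 12.89 ± 0.47 in KO macrophages (SD, n = 5 and n = 6), a difference of 0.77 with a 95% interval of -0.12 to 1.65 (adjusted p = 0.183). Intervals are those of single genes, so 1 that leaves out 0 can stand beside an adjusted p above 0.05.

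The promoters of 4 of these stefins, chosen after their values were seen, are shown with the longest run that all 4 share. It has 16 bases, set in capitals, and lies close to the start of the gene. The promoter of Stfa3 was not searched, so the run cannot be set against the size of the difference. Each line gives the last 100 bases before the start in the RefSeq annotation of GRCm38.p6, read 5′ to 3′ on the gene's own strand. Stfa1 lies at chr16:36277048-36277147 on the plus strand, Stfa2 at chr16:36408364-36408463 on the minus strand, Stfa2l1 at chr16:36156711-36156810 on the plus strand and Cstdc4 at chr16:36184112-36184211 on the plus strand.
Stfa1: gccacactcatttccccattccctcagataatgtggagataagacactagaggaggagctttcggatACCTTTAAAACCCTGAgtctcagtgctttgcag
Stfa2: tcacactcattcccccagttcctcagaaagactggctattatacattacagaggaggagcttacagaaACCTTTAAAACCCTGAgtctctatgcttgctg
Stfa2l1: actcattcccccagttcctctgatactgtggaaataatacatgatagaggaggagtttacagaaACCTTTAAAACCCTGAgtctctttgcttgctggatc
Cstdc4: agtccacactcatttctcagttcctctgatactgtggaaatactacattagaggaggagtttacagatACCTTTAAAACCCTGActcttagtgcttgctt
The shared run begins 33 bases before the start in Stfa1, 32 in Stfa2 and Cstdc4, and 36 in Stfa2l1. It describes the likeness of these copies and says nothing of a factor that binds it.

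The promoter of S100a9, second among the higher genes by its difference, is shown whole for the 250 bases before its start, at chr3:90695722-90695971 on the minus strand of GRCm38.p6. The capitals mark a CEBP site, spelled TTGCNNAA and searched on both strands.
S100a9: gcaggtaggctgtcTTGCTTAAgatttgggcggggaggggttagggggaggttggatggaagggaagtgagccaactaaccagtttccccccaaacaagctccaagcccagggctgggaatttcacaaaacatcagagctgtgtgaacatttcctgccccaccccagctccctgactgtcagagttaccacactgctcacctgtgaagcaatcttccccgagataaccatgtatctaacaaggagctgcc
The site begins 236 bases before the start, and 9.56% of the 32851 RefSeq promoters of this length hold one. The CEBP factors are regulators of granulocyte genes. Only Cebpe (1.23, adjusted p = 1.07e-05) and Cebpd (1.45, adjusted p = 3.87e-05) are given here, both higher in KO neutrophils. The Cebpe means of both groups were below 6.69. Other CEBP factors are not listed, so these genes do not describe the family. Of 12 granulocyte transcription factors 4 were higher, 1 was lower and 7 did not pass. A link between any factor and this site was not tested. No CEBP site and no ETS core (AGGAAG, in 29.5% of promoters) was found in the same window of Il1f9, H2-Eb1 or Cd209a. A match describes the letters only, and their absence says nothing of the factor.

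Granule proteins did not follow the markers. Granules are filled while neutrophils mature in the marrow, so their transcripts are abundant in precursors. Of 17 measured, 5 were higher, 3 lower and 9 did not pass, and the median difference was 0.10. Mmp9, the gelatinase of the tertiary granules, read 12.83, 14.59, 13.78, 14.10 and 14.60 in KO neutrophils and 7.06 to 8.40 (median 7.60) in KO macrophages (6.35, SE 0.31, adjusted p = 1.21e-15). Lcn2, an iron-trapping lipocalin, read 15.79, 17.04, 16.58, 15.93 and 17.06 in KO neutrophils and 10.32 to 13.52 (median 12.63) in KO macrophages (4.09, SE 0.82, adjusted p = 0.000328). Both were far above the macrophages on all 5 arrays, and Padi4, the enzyme that citrullinates histones in extracellular traps, was higher by 1.63 (adjusted p = 7.8e-05). The granule genes of precursors were dim or uneven: lactoferrin Ltf was 6.21, 5.53, 6.21, 8.56 and 6.56 and the granule protein Ngp 9.11, 8.59, 8.96, 12.21 and 9.13 in KO neutrophils, and Camp, a cathelicidin, was 6.74, 5.64, 6.74, 10.84 and 6.38. KO neutrophil 4 was the highest neutrophil array for these 3 genes. Camp did not pass (1.83, SE 1.25, adjusted p = 0.281), while Ltf (2.03, SE 0.74, adjusted p = 0.0373) and Ngp (3.05, SE 1.15, adjusted p = 0.0422) did. Neither call was steady: that of Ltf ended without KO neutrophil 4 or 5 or KO macrophage 1, 2, 3, 4, 5 or 6, with quantile normalization, with each array centred on its median, or without KO neutrophils 1 and 5 together (adjusted p from 0.0501 to 0.131), and that of Ngp without KO neutrophil 1, 3, 4 or 5 or KO macrophage 1, 2, 4 or 5, with each array centred on its median, or without KO neutrophils 1 and 5 together (adjusted p from 0.0513 to 0.134). The count of higher granule genes was 3 without KO neutrophil 4 or KO macrophage 1, 2, 4 or 5. The protease genes Elane, Ctsg and Mpo, of primary granules, had differences of -0.35, -0.19 and 0.10 with no call. Prtn3, proteinase 3, fell by 1.96 in KO neutrophils, at 6.70 to 6.93 against 8.51 to 9.18 in KO macrophages, and Serpinb1a (-0.98) and the chitinase-like Chil3 (-1.53) were the other 2 that were lower, the call of Chil3 ending without KO neutrophil 4 or without KO neutrophils 1 and 5 together (adjusted p from 0.056 to 0.0626).

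Receptors through which neutrophils sense and adhere were split between the cell types. Of 17 measured, 6 were higher and 4 lower, with a median of 0.15. Cxcr2 read 15.50, 16.06, 15.75, 15.79 and 15.36 in KO neutrophils and 7.03 to 8.28 (median 8.13) in KO macrophages, and Cxcr1, the second interleukin-8-type receptor, was 11.30 to 12.60 in KO neutrophils against 5.45 to 5.85 in KO macrophages. Both separated the groups fully. Csf3r, the receptor of the growth factor G-CSF, was higher by 3.33 (SE 0.21, adjusted p = 3.89e-13), the selectin ligand Selplg by 1.16 and the adhesion molecule Ceacam10 by 2.15. Lower were Ceacam1 (-1.20), the receptor C5ar1 for complement C5a (-0.70) and the integrin subunits Itgal (-0.66) and Itgb2 (-0.64). The call of Itgal ended without KO neutrophil 1 or 5 or KO macrophage 6, with quantile normalization, with only the arrays compared in the fit, or without KO neutrophils 1 and 5 together (adjusted p from 0.0512 to 0.416), and that of Itgb2 without KO neutrophil 2 or KO macrophage 6 or with quantile normalization (adjusted p from 0.0506 to 0.249). Among all 17, the count of lower genes was 2 without KO macrophage 6. Itgam, the CD11b chain by which both cell types were sorted, was at 14.94 ± 0.37 in KO neutrophils and 15.25 ± 0.08 in KO macrophages (SD, n = 5 and n = 6), a difference of -0.30 (95% interval -0.65 to 0.04, adjusted p = 0.175).

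Cytokine genes were more often higher in KO neutrophils than lower. Of 20 measured, 10 were higher and 5 lower, and the median was 0.84. Il1b, the main interleukin-1 of myeloid cells, read 16.65, 17.31, 17.11, 17.05 and 17.47 in KO neutrophils and 14.58 to 15.33 (median 15.24) in KO macrophages (2.06, SE 0.38, adjusted p = 0.000132). Tnf read 11.31, 12.45, 12.49, 14.50 and 12.12 in KO neutrophils and 8.57 to 12.94 (median 9.94) in KO macrophages (2.22, SE 0.60, adjusted p = 0.00522). The groups did not overlap for Il1b, but they did for Tnf, where KO macrophage 3 was the brightest macrophage array at 12.94. Ltb, lymphotoxin beta (3.98, SE 0.29, adjusted p = 1.1e-11), Il15 (2.88, SE 0.35, adjusted p = 3e-07) and Il23a, the specific chain of IL-23 (3.60, SE 0.54, adjusted p = 8.23e-06), followed Csf1 among the higher. Il18, a cytokine that inflammasomes process, was lower, at 10.29 to 11.78 in KO neutrophils against 12.93 to 14.09 in KO macrophages (-2.55, SE 0.24, adjusted p = 3.26e-09). Il10, the anti-inflammatory cytokine, was lower too (-1.21, SE 0.30, adjusted p = 0.00287), with KO neutrophil levels of 6.60 to 7.53. Il6 had levels of 3.86 to 4.65 in KO neutrophils and 4.16 to 4.89 in KO macrophages, all below 6.69.

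The other genes of the IL-1 family and the inflammasomes carried both activating and damping members. Of 10 receptors and regulators of the family, 6 were higher and 1 lower, and besides Il1f9 these included the decoy receptor Il1r2 (4.33, SE 0.58, adjusted p = 1.56e-06), the accessory chain Il1rap (4.19, SE 0.47, adjusted p = 7.14e-08) and the IL-18 receptor chain Il18rap (3.06, SE 0.27, adjusted p = 7.91e-10). Il1r2 was 16.10 to 16.69 in KO neutrophils against 11.13 to 12.69 in KO macrophages. Il1rn, the natural antagonist of the IL-1 receptor, did not pass, with 13.34 ± 0.64 in KO neutrophils and 12.54 ± 0.60 in KO macrophages (SD, n = 5 and n = 6, difference 0.81, 95% interval 0.10 to 1.51), although it passed without KO neutrophil 1, with quantile normalization, or with array weights (adjusted p from 0.0231 to 0.0427). Sigirr, an inhibitory receptor, was the lower 1 (-0.92). Of 13 inflammasome genes, 6 were higher and 3 lower. Nlrp3, the sensor of cell damage, read 12.83, 13.52, 13.75, 14.72 and 14.52 in KO neutrophils and 10.23 to 12.45 (median 11.10) in KO macrophages (2.73, SE 0.38, adjusted p = 2.74e-06), with no overlap. Nlrp12, a damping NOD-like receptor, was higher by 5.72, with KO macrophage levels of 3.68 to 3.99, and Txnip by 1.63. The sensors of bacterial flagellin and secretion systems went the other way, with Nlrc4 at -1.75, Naip2 at -0.89 and Naip5 at -0.73, whose call ended without KO neutrophil 1, 2, 3 or 4 or KO macrophage 1 or 4, with quantile normalization, or without KO neutrophils 1 and 5 together (adjusted p from 0.0524 to 0.288).

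Chemokine genes differed in both directions. Of 23 measured, 5 were higher and 8 lower, with a median of -0.28. Cxcl2, a ligand of CXCR2, read 16.33, 17.15, 16.98, 17.22 and 17.04 in KO neutrophils and 12.75 to 16.37 (median 14.45) in KO macrophages (2.36, SE 0.69, adjusted p = 0.00968). Cxcl3, another CXCR2 ligand (1.78, SE 0.31, adjusted p = 5.68e-05), and Ccl3 (2.32, SE 0.41, adjusted p = 6.31e-05) and Ccl4 (2.02, SE 0.37, adjusted p = 0.000131), inflammatory CC chemokines, were higher as well. Cxcl5 (0.48) had levels below 6.69 in both groups, and its call ended without KO neutrophil 2 or 4 or KO macrophage 1 or 6, with quantile normalization, or with each array centred on its median (adjusted p from 0.0516 to 0.0939). The lower genes included Ccl24 (-1.89, SE 0.39, adjusted p = 0.000459), Ccl17 (-0.87, SE 0.20, adjusted p = 0.00121) and Ccl9 (-1.94, SE 0.45, adjusted p = 0.00136), and the monocyte attractants Ccl2 (-0.96, SE 0.30, adjusted p = 0.0139) and Ccl7 (-1.67, SE 0.59, adjusted p = 0.0317). The count of lower chemokines was 4 to 5 without KO neutrophil 2 or 5 or KO macrophage 3. The call of Ccl2 ended without KO neutrophil 5 or with quantile normalization (adjusted p from 0.0605 to 0.076) and that of Ccl7 without KO neutrophil 2 or 5 or KO macrophage 3 or 5, with quantile normalization, or with only the arrays compared in the fit (adjusted p from 0.0569 to 0.108). KO macrophage 3 was the brightest macrophage array for Cxcl2, Ccl3, Ccl4, Ccl2 and Ccl7, at 16.37, 14.74, 10.99, 13.91 and 12.49. Of 13 chemokine receptors, 6 were higher, led by Cxcr2 and Cxcr1 in p, and 3 lower: Ccr2, the dendritic cell receptor Ccr7 (-1.88, SE 0.17, adjusted p = 6.86e-10) and the fractalkine receptor Cx3cr1 (-1.18, SE 0.36, adjusted p = 0.0138). The call of Cx3cr1 ended without KO neutrophil 4 or 5, with quantile normalization, or without KO neutrophils 1 and 5 together (adjusted p from 0.0558 to 0.142). Cxcr4, the receptor that holds neutrophils in the marrow, was at 15.70 ± 0.25 in KO neutrophils and 15.31 ± 0.27 in KO macrophages (SD, n = 5 and n = 6, difference 0.39, 95% interval -0.12 to 0.90).

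MHC class II presentation was lower in KO neutrophils as a group. Of 14 measured genes 11 were lower and none higher, 11 had no overlap, and the median difference was -3.26. H2-Aa, the alpha chain, read 8.87, 7.72, 10.12, 8.59 and 8.19 in KO neutrophils and 13.64 to 14.76 (median 14.30) in KO macrophages (-5.55, SE 0.30, adjusted p = 1.06e-14). Ciita, the master activator of class II genes, read 5.10, 5.29, 5.66, 5.39 and 6.15 in KO neutrophils and 7.98 to 8.45 (median 8.27) in KO macrophages (-2.70, SE 0.18, adjusted p = 2.69e-12), the neutrophil values all lying below 6.69. The peptide-loading genes were lower too, with H2-DMa at -3.83, H2-DMb1 at -3.84, H2-DMb2 at -4.55 and H2-Oa at -4.28, and so were the costimulator Cd86 (-2.61) and the thiol reductase Ifi30 (-1.02). The 3 that did not pass were the costimulator Cd80 (-1.16), H2-Eb2 (-0.17, below 6.69 in both groups) and the protease Ctss. Cd80 passed without KO macrophage 2, with each array centred on its median, with array weights, or with only the arrays compared in the fit (adjusted p from 0.00307 to 0.0486). Ctss, which trims the invariant chain, was 15.23 to 16.08 in KO neutrophils against 15.64 to 15.86 in KO macrophages, a difference of 0.01 with a 95% interval of -0.28 to 0.31. In KO neutrophils the class II chains were not at the floor on every array: KO neutrophil 3 had 11.20 for H2-Eb1, 10.72 for H2-Ab1 and 10.12 for H2-Aa, the highest of the 5 arrays for each.

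The promoters of class II genes are known for a conserved set of boxes that includes the Y box, bound by the factor NF-Y and needed for the action of CIITA. The Y box, spelled TGATTGG and searched on both strands, was found before 7 of the 8 class II genes of the list that have a promoter in the RefSeq table, against 7.23% of all 32851 promoters. H2-DMa had none in its window. H2-Eb1 is shown for the whole 250 bases, at chr17:34305617-34305866 on the plus strand, and 4 others for 120 bases around the box, with the box in capitals and coordinates in GRCm38.p6. H2-Aa lies at chr17:34287844-34287963 (minus strand), H2-DMb1 at chr17:34153038-34153157 (plus), H2-DMb2 at chr17:34145067-34145186 (plus) and H2-Oa at chr17:34092244-34092363 (plus).
H2-Eb1: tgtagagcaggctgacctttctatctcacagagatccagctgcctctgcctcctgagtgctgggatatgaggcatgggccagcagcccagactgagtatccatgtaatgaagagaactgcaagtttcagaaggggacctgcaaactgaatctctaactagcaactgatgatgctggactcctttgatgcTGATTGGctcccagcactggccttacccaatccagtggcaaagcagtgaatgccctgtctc
H2-Aa: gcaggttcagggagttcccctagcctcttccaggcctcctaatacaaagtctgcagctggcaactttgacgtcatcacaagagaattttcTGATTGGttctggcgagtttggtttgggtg
H2-DMb1: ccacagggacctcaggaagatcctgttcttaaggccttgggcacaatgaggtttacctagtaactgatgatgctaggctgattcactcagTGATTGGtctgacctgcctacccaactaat
H2-DMb2: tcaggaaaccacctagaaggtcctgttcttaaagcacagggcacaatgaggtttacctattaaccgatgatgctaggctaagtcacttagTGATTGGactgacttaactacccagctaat
H2-Oa: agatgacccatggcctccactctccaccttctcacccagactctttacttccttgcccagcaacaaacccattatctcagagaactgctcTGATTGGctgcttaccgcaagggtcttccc
The box begins 61 bases before the start in H2-Eb1, 50 in H2-Aa, 63 in H2-DMb1, 92 in H2-DMb2 and 45 in H2-Oa. H2-Eb2, which did not pass and was below 6.69 in both groups, had a box too, and a box in the sequence is no measure of binding.

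**Figure D2:**
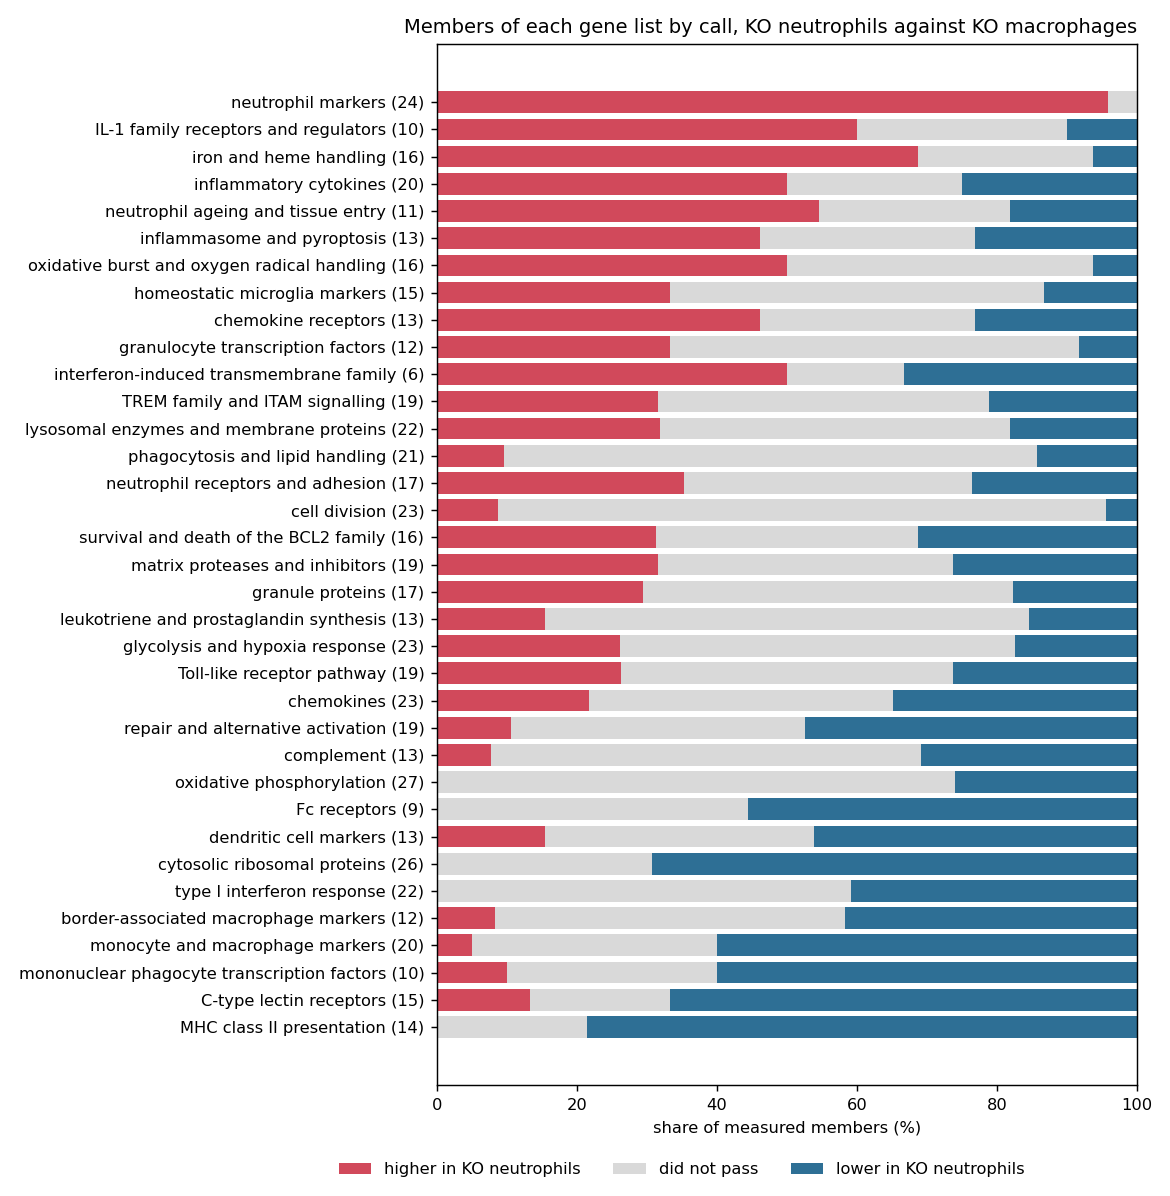
Share of measured members of each gene list (x axis, %, with the number measured in parentheses) that were higher in KO neutrophils, did not pass, or were lower in KO neutrophils, with lists ordered by median difference from the highest at the top. Neutrophil markers were higher in 23 of 24, MHC class II genes lower in 11 of 14, and among all clusters 15.9% were higher and 15.8% lower.

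Markers of monocytes and macrophages were lower in KO neutrophils, by less than the class II genes. Of 20 measured, 12 were lower and 1 higher, with a median of -0.92. Ly6c2, the antigen of inflammatory monocytes, read 10.40, 11.78, 11.998, 11.13 and 12.66 in KO neutrophils and 14.12 to 15.22 (median 14.15) in KO macrophages (-2.76, SE 0.39, adjusted p = 3.39e-06). The integrin Itga4 (-2.59, SE 0.31, adjusted p = 2.34e-07), Ms4a6c (-1.73, SE 0.26, adjusted p = 9.9e-06) and the high-affinity IgG receptor Fcgr1 (-1.30, SE 0.24, adjusted p = 0.000128) had no overlap either. Csf1r, the receptor of CSF1, was lower by a small amount, at 14.17 to 14.67 in KO neutrophils against 14.61 to 15.38 in KO macrophages (-0.64, SE 0.16, adjusted p = 0.00351), as was Adgre1, a classic macrophage surface antigen (-0.64, SE 0.22, adjusted p = 0.0259). The call of Csf1r ended with quantile normalization (adjusted p = 0.0519), and that of Adgre1 without KO neutrophil 2 or 3 or KO macrophage 3 or 6 or with quantile normalization (adjusted p from 0.0508 to 0.272). Cd14, the co-receptor of bacterial lipopolysaccharide, was the 1 marker that was higher (1.13, SE 0.25, adjusted p = 0.000987). The other 7 did not pass: Apoe, Mertk, Ms4a7, Lyz2, Lgals3, Cd300a and Ctss. Of 10 transcription factors of mononuclear phagocytes, 6 were lower, led by Klf4 of the monocyte lineage (-3.56, SE 0.29, adjusted p = 1.21e-10) and the lipid-sensing Nr1h3 (-2.31, SE 0.33, adjusted p = 4.01e-06), while Egr2 was higher (2.47, SE 0.34, adjusted p = 2.7e-06). Of 12 granulocyte factors 4 were higher, including Mxd1, an antagonist of MYC (3.15, SE 0.22, adjusted p = 5.71e-12), and Klf5 (1.98, SE 0.23, adjusted p = 1.01e-07), and Runx1 was the 1 that was lower (-0.91).

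Lectin and Fc receptors were also mostly lower in KO neutrophils. Of 15 C-type lectin receptors 10 were lower and 2 higher, with a median of -1.38. After Cd209a the lowest p-values were those of Clec4b1 (-2.74, SE 0.25, adjusted p = 1.16e-09), Clec4a3 (-3.61, SE 0.37, adjusted p = 1.15e-08), Clec10a, the macrophage galactose lectin (-1.72, SE 0.19, adjusted p = 3.01e-08), and Clec4a1 (-3.12, SE 0.38, adjusted p = 2.55e-07). The 2 that were higher, Clec4d (1.503, SE 0.41, adjusted p = 0.00563) and Clec4e (0.87, SE 0.28, adjusted p = 0.0172), sense mycobacterial glycolipid and, for Clec4e, dead cells. The call of Clec4e ended without KO neutrophil 5 (adjusted p = 0.0532). Clec4d was 16.71 to 17.02 in KO neutrophils against 14.98 to 15.54 in KO macrophages, with no overlap. Of 9 Fc receptors 5 were lower and none higher, although Pigr, which carries antibody across epithelia, passed as higher without KO macrophage 3 (0.37 over all arrays, adjusted p = 0.0896). The inhibitory receptor Fcgr2b read 13.34, 12.94, 13.05, 13.08 and 12.73 in KO neutrophils and 14.50 to 15.00 (median 14.75) in KO macrophages (-1.71, SE 0.15, adjusted p = 3.46e-10). Fcgr3 (0.15, 95% interval -0.09 to 0.39) and Fcgr4 (-0.12, 95% interval -0.59 to 0.34), low-affinity IgG receptors, did not pass.

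Genes of the type I interferon response were lower in KO neutrophils where they passed. Of 22 measured, 9 were lower and none higher, with a median of -0.68. Zbp1, a sensor of Z-form nucleic acid (-2.04, SE 0.26, adjusted p = 8.45e-07), the antiviral GTPase Mx2 (-2.06, SE 0.28, adjusted p = 1.75e-06), Oas1a (-1.96, SE 0.27, adjusted p = 1.85e-06), Ifi35 (-1.59, SE 0.31, adjusted p = 0.000259) and Ifit2 (-1.68, SE 0.33, adjusted p = 0.000271) had the lowest p-values. Zbp1 read 8.96, 9.61, 8.88, 8.67 and 8.99 in KO neutrophils and 10.51 to 11.63 (median 11.06) in KO macrophages, without overlap. The mean of the list per array was 8.25 to 9.13 in KO neutrophils and 9.11 to 9.83 in KO macrophages, so KO neutrophil 2, the highest, reached the lowest macrophage array. In the interferon-induced transmembrane family, which blocks viral entry, 6 genes were measured and 2 were lower, Ifitm3 (-1.42, SE 0.17, adjusted p = 2.08e-07) and Ifitm6 (-2.49, SE 0.49, adjusted p = 0.000277). The 3 higher genes were Ifitm7 (0.82, SE 0.15, adjusted p = 0.000117), Ifitm5 (1.78, SE 0.24, adjusted p = 1.63e-06) and Ifitm1 (0.74, SE 0.29, adjusted p = 0.0493). The call of Ifitm1 ended without KO neutrophil 2, 3, 4 or 5 or KO macrophage 1, 2, 3, 4, 5 or 6, with quantile normalization, with each array centred on its median, or without KO neutrophils 1 and 5 together (adjusted p from 0.06 to 0.117).

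**Figure D3:**
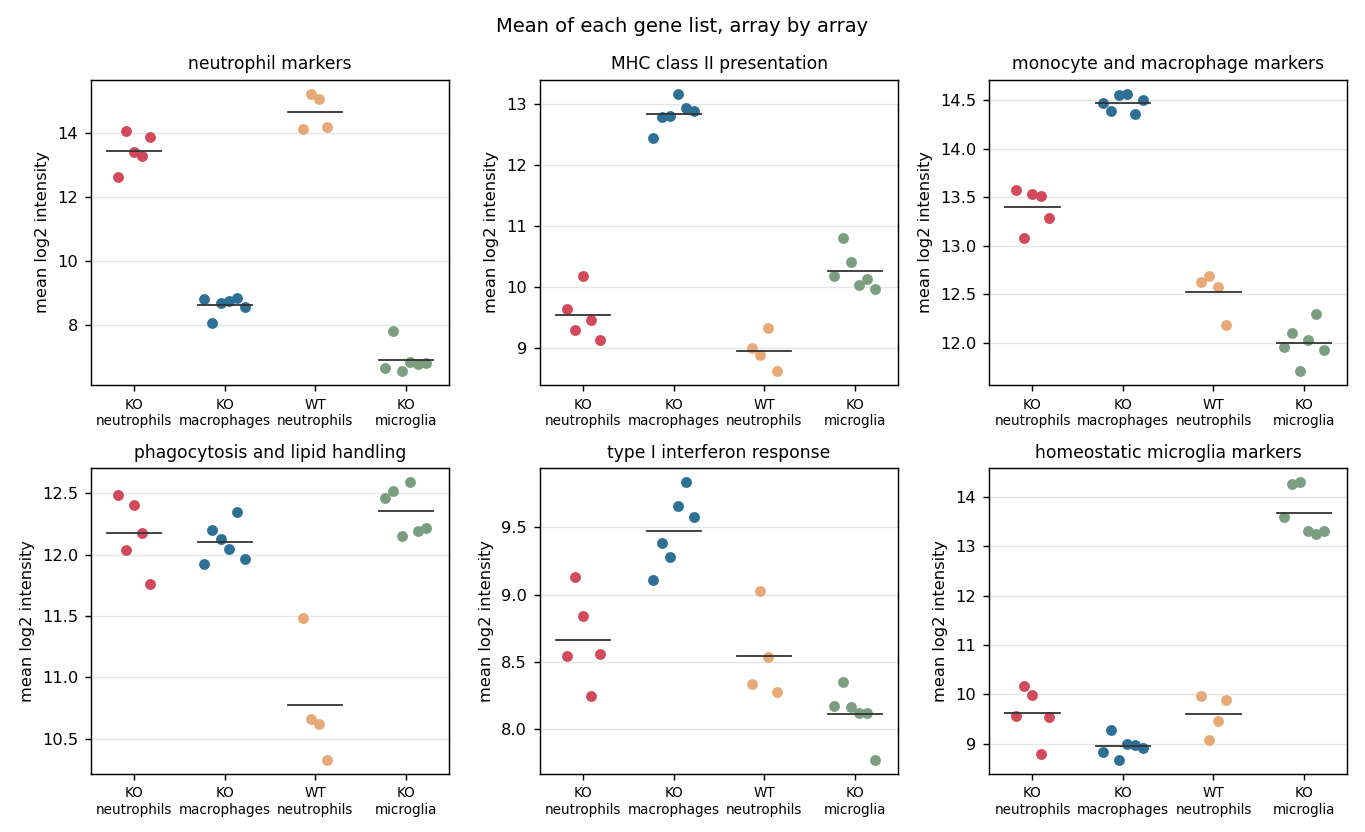
Mean log2 intensity (y axis) of 6 gene lists on each array, 1 point per array and a line at the group mean, in KO neutrophils, KO macrophages, WT neutrophils and KO microglia. KO neutrophils stand above KO macrophages for neutrophil markers and below them for MHC class II genes, and the 2 KO groups overlap for phagocytosis and lipid handling, where WT neutrophils lie lower.

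Of 21 measured genes of phagocytosis and lipid handling, 2 were higher, 3 lower and 16 did not pass, with a median of 0.16. The share called was below the 31.7% of all clusters, so the calls are no result about phagocytosis as a group. Mertk, a kinase receptor by which phagocytes engulf dying cells, read 13.18, 11.90, 13.05, 12.80 and 11.99 in KO neutrophils and 12.22 to 13.04 (median 12.55) in KO macrophages, a difference of 0.05 with a 95% interval of -0.62 to 0.72. Trem2, a lipid-sensing receptor, read 13.03, 12.60, 13.19, 12.98 and 12.56 in KO neutrophils and 12.57 to 13.47 (median 12.81) in KO macrophages, a difference of -0.03 (95% interval -0.65 to 0.60). Apoe, the lipid carrier, read 17.33, 16.05, 17.26, 17.18 and 16.30 in KO neutrophils and 16.82 to 17.05 (median 16.90) in KO macrophages, a difference of -0.09 (95% interval -0.83 to 0.64). The groups overlapped for all 3 genes, and the intervals hold differences in either direction. Axl, another uptake receptor of the family, was lower (-3.78, SE 0.39, adjusted p = 1.5e-08), as were the scavenger receptor Msr1 (-1.001, SE 0.24, adjusted p = 0.00223) and Npc2, which moves cholesterol out of lysosomes (-0.78, SE 0.26, adjusted p = 0.0237). The call of Npc2 ended without KO neutrophil 5, with quantile normalization, or without KO neutrophils 1 and 5 together (adjusted p from 0.0751 to 0.158). Cd36, the receptor for oxidised lipid, was higher, at 13.73, 12.51, 14.22, 14.18 and 12.59 in KO neutrophils and 9.47 to 13.004 (median 10.16) in KO macrophages (2.87, SE 0.50, adjusted p = 5.42e-05). Of the 6 macrophage arrays, 5 lay at 10.95 or below, and KO macrophage 5, at 13.004, overlapped the neutrophils. Lipa, the lysosomal lipase, was the other higher gene (0.91, SE 0.29, adjusted p = 0.0156).

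Of 13 complement genes measured, 4 were lower, 1 was higher and 8 did not pass, a share called near the 31.7% of all clusters and so no result about complement as a group, with a median of -0.34. The chains of C1q, the starter of the classical pathway and a product of macrophages and microglia, did not pass: C1qa (0.21, 95% interval -0.68 to 1.09), C1qb (0.09, 95% interval -0.80 to 0.98) and C1qc (0.51, 95% interval -0.35 to 1.37). C1qa read 15.34, 15.88, 15.75, 14.95 and 13.03 in KO neutrophils and 14.65 to 15.15 (median 14.67) in KO macrophages, and C1qb 14.06, 14.17, 14.38, 14.01 and 13.29 in KO neutrophils and 13.57 to 14.21 (median 13.97) in KO macrophages. For both chains 4 of the 5 neutrophil arrays lay within or above the macrophage range, and KO neutrophil 5 was below it. The mean of homeostatic microglia markers stands beside these values: it was 8.79 to 10.18 in KO neutrophils, 8.68 to 9.28 in KO macrophages and 13.24 to 14.30 in KO microglia. Of its 15 measured genes 5 were higher in KO neutrophils and 2 lower, or 1 without KO neutrophil 4 or 5. The difference was positive for 11 of the 15, with a median of 0.49. P2ry13, which neutrophils also express, had the smallest p (3.67, SE 0.36, adjusted p = 4e-09). P2ry12 did not pass over all arrays, but it passed as higher with quantile normalization (0.75, adjusted p = 0.0321) or without KO neutrophil 1 (0.70, adjusted p = 0.0261). Tmem119, a marker of microglia, had a difference in the other direction that did not pass over all arrays. It was 7.32 to 8.18 in KO neutrophils against 8.13 to 9.02 in KO macrophages and 12.08 on average in KO microglia. The part of microglia, or of macrophages sorted with neutrophils, in these levels was not tested. The lower complement genes were Cfb, factor B of the alternative pathway (-3.02, SE 0.29, adjusted p = 3.01e-09), Cd93 (-1.40, SE 0.33, adjusted p = 0.00147), the integrin Itgax (-1.71, SE 0.40, adjusted p = 0.00151) and C5ar1, and the higher 1 was the regulator Cr1l (0.47, SE 0.15, adjusted p = 0.0179), whose call ended without KO neutrophil 2 or 5 or with each array centred on its median (adjusted p from 0.051 to 0.0679).

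Lysosomal genes that passed differed by less than 2-fold, apart from Ctsc. Of 22 measured, 7 were higher and 4 lower, with a median of 0.16. Cathepsin C, Ctsc, which activates granule proteases, was the largest of them and lower, at 12.997, 12.69, 13.05, 12.70 and 12.14 in KO neutrophils and 14.60 to 15.06 (median 14.83) in KO macrophages (-2.13, SE 0.18, adjusted p = 1.79e-10). Cd63, a membrane protein of lysosomes and primary granules, was higher (0.54, SE 0.11, adjusted p = 0.000364), as were cathepsin B, Ctsb (0.60, SE 0.13, adjusted p = 0.000904), and the protease legumain, Lgmn (0.54, SE 0.13, adjusted p = 0.00251). The call of Ctsb ended with quantile normalization (adjusted p = 0.145) and that of Lgmn with quantile normalization (adjusted p = 0.774). Man2b1, a mannosidase, was lower (-0.65, SE 0.15, adjusted p = 0.00183), and the count of lower genes was 2 without KO neutrophil 5. Genes of repair and alternative activation were lower in 9 of 19 and higher in 2: Tgfb1 (-1.72, SE 0.27, adjusted p = 1.6e-05), Ccl24 and Fn1, fibronectin (-1.25, SE 0.26, adjusted p = 0.000546), were among the lower, and Hmox1 (1.69, SE 0.37, adjusted p = 0.000821) and Igf1 (2.31, SE 0.63, adjusted p = 0.00555) were the 2 higher. Arg1, the arginase of alternatively activated macrophages, was 15.48 to 16.36 in KO neutrophils against 15.83 to 16.18 in KO macrophages, a difference of 0.05 whose 95% interval ran from -1.23 to 1.33.

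Iron and heme genes were higher in KO neutrophils in 11 of 16 measured and lower in 1, with a median of 1.01. Steap4, a metalloreductase, read 10.62, 12.20, 11.92, 11.62 and 13.05 in KO neutrophils and 5.37 to 5.95 (median 5.61) in KO macrophages (6.26, SE 0.33, adjusted p = 7.46e-15). The iron exporter Slc40a1 (3.21, SE 0.34, adjusted p = 1.73e-08), the ferritin heavy chain Fth1 (0.74, SE 0.13, adjusted p = 6.11e-05), the heme transporter Slc48a1 (1.69, SE 0.33, adjusted p = 0.000276) and Lcn2 followed by p, and heme oxygenase Hmox1 was higher too. Hmox1 was 13.76 to 14.51 in KO neutrophils against 11.85 to 13.64 in KO macrophages, and the groups did not overlap. Cd163, the hemoglobin scavenger receptor, was the 1 that was lower (-0.89), with a KO neutrophil level below 6.69. Of 16 genes of the oxidative burst and radical handling, 8 were higher and 1 lower. The glutathione-synthesis subunit Gclm was higher (2.68, SE 0.36, adjusted p = 1.21e-06), as were the inducible nitric oxide synthase Nos2 (2.31, SE 0.34, adjusted p = 5.7e-06) and peroxiredoxin Prdx1 (0.68, SE 0.15, adjusted p = 0.000713). Cybb, the catalytic chain of the phagocyte oxidase, was the lower 1, at 12.72, 13.46, 13.65, 13.62 and 13.79 in KO neutrophils and 15.36 to 15.98 (median 15.78) in KO macrophages (-2.25, SE 0.44, adjusted p = 0.000242), with no overlap.

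Ribosomal protein genes were lower in KO neutrophils where they passed. Of 26 ribosomal proteins 18 were lower and none higher, with a median of -0.58 against -0.01 for all clusters, and the mean per array was 14.89 to 15.32 in KO neutrophils and 15.56 to 15.91 in KO macrophages. Rps19 read 11.46, 10.98, 11.22, 11.39 and 10.99 in KO neutrophils and 12.34 to 13.71 (median 13.12) in KO macrophages (-1.88, SE 0.17, adjusted p = 1.06e-09), without overlap, and Rpl27 (-1.26, SE 0.15, adjusted p = 2.61e-07), Rpl10a (-1.16, SE 0.17, adjusted p = 5.03e-06), Rpl19 (-1.08, SE 0.17, adjusted p = 2.04e-05) and Rps9 (-0.93, SE 0.20, adjusted p = 0.000714) followed. Of 27 genes of oxidative phosphorylation 7 were lower and none higher, with a median of -0.35. The share called was below the 31.7% of all clusters, so the calls are no result about respiration as a group. Among the 7 were the complex I subunits Ndufb3 (-0.76, SE 0.19, adjusted p = 0.0025) and Ndufb10 (-1.07, SE 0.27, adjusted p = 0.00297) and Sdhb of complex II (-0.73, SE 0.19, adjusted p = 0.00417). Without KO neutrophil 5, the lowest neutrophil array for these 3 genes, 3 of the 27 passed, and without KO neutrophil 2, 4 did. Glycolysis and the hypoxia response were mixed, with 6 of 23 higher and 4 lower. The oxygen sensor Egln3 read 10.55, 11.69, 11.45, 11.90 and 12.39 in KO neutrophils and 6.82 to 8.13 (median 7.47) in KO macrophages (4.11, SE 0.34, adjusted p = 1.95e-10). Pfkfb3, which drives glycolytic flux (1.46, SE 0.21, adjusted p = 5.06e-06), Hk3, the hexokinase of myeloid cells (1.40, SE 0.22, adjusted p = 2.08e-05), and the glucose transporter Slc2a1 (1.02, SE 0.18, adjusted p = 5.19e-05) were higher, whereas Hif1a was lower (-0.80, SE 0.18, adjusted p = 0.000995). The count of lower genes was 2 without KO neutrophil 2 or KO macrophage 5.

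Matrix proteases differed in both directions. Of 19 matrix proteases and inhibitors 6 were higher and 5 lower, with a median of 0.12. After Mmp9 came Adam19 (4.29, SE 0.28, adjusted p = 1.09e-12) and Mmp25, the membrane protease of neutrophils (1.33, SE 0.19, adjusted p = 2.71e-06), while the inhibitor Timp1 (-3.53, SE 0.34, adjusted p = 2.71e-09) and Mmp14, a membrane collagenase (-1.87, SE 0.31, adjusted p = 2.79e-05), were lower. Timp1 was below 6.69 on all 5 KO neutrophil arrays, at 5.69 to 6.31, against 9.16 to 9.81 in KO macrophages. Of 13 genes of leukotriene and prostaglandin synthesis 2 were higher, Alox5, which starts leukotriene synthesis (6.18, SE 0.45, adjusted p = 1.24e-11), and Ptgs2, the inducible cyclooxygenase (3.86, SE 0.32, adjusted p = 1.4e-10). Alox5 read 12.21, 14.11, 12.82, 13.79 and 13.66 in KO neutrophils and 6.35 to 7.62 (median 7.18) in KO macrophages, fully apart. The 2 lower genes were Hpgd, which degrades prostaglandins (-1.64, SE 0.45, adjusted p = 0.00658), and Lta4h, which makes a leukotriene (-0.73, SE 0.28, adjusted p = 0.0432), whose call ended without KO neutrophil 1, 2, 3 or 4 or KO macrophage 2, 3, 4, 5 or 6, with quantile normalization, or with only the arrays compared in the fit (adjusted p from 0.0508 to 0.139).

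Receptors of the TREM family and the pathways beside them did not move one way. Of 19 genes of TREM and ITAM signalling 6 were higher and 4 lower, with a median of 0.26. Pglyrp1, a granule protein that is a ligand of TREM1, read 12.51, 14.96, 13.23, 13.44 and 14.42 in KO neutrophils and 7.53 to 9.51 (median 7.87) in KO macrophages (5.64, SE 0.41, adjusted p = 1.22e-11). Treml2 (1.36, SE 0.27, adjusted p = 0.000299) and Trem3 (1.60, SE 0.33, adjusted p = 0.000377) of the receptor family, the adaptor Hcst (1.57, SE 0.21, adjusted p = 1.39e-06) and the kinase Syk (1.15, SE 0.24, adjusted p = 0.000547) were higher, whereas Plcg2, a phospholipase downstream of them, was lower (-1.78, SE 0.26, adjusted p = 5.19e-06). Tyrobp, the DAP12 adaptor through which TREM1 signals, was 16.48 to 16.78 in KO neutrophils against 16.25 to 16.65 in KO macrophages and did not pass (0.27, 95% interval 0.05 to 0.49), although it passed without KO neutrophil 1 or KO macrophage 4, with array weights, or with a variance trend and robust prior (adjusted p from 0.0207 to 0.0409). In the Toll-like receptor pathway 5 of 19 were higher and 5 lower. Tlr9, the receptor for DNA, was lower, at 8.00, 7.17, 7.22, 7.67 and 7.53 in KO neutrophils and 11.23 to 11.90 (median 11.52) in KO macrophages (-4.01, SE 0.35, adjusted p = 3.91e-10). Tlr6 (1.81, SE 0.24, adjusted p = 1.54e-06) and Tlr4, the receptor for lipopolysaccharide (1.21, SE 0.26, adjusted p = 0.000785), were higher, and Tlr5, the receptor for flagellin (-2.25, SE 0.45, adjusted p = 0.000285), and the adaptor Ticam1 (-0.999, SE 0.16, adjusted p = 2.53e-05) lower. The count of lower genes was 3 without KO macrophage 4. Among 16 members of the BCL2 family 5 were higher, including the survival genes Bcl2l1 (1.24, SE 0.27, adjusted p = 0.000838) and Mcl1 (0.56, SE 0.13, adjusted p = 0.00115), and 5 were lower, including the death effector Bak1 (-0.99, SE 0.19, adjusted p = 0.000262) and the survival gene Bcl2 (-1.24, SE 0.32, adjusted p = 0.00393). The higher ones numbered 3 without KO neutrophil 2, 3 or 4 or KO macrophage 1 or 2, and the lower ones 3 without KO neutrophil 2 or KO macrophage 6. Of 23 cell division genes 20 did not pass, 2 were higher, Mki67 (1.29, SE 0.37, adjusted p = 0.00884) and Aurka (0.90, SE 0.21, adjusted p = 0.00188), and Kif20a was lower (-0.83).

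Genes of neutrophil ageing and tissue entry were led by Cxcr2, Siglecf and Ptgs2, and of 11 measured 6 were higher and 2 lower. The feedback inhibitors of NF-kB were among the higher: Tnfaip3 (2.62, SE 0.58, adjusted p = 0.000868) and Nfkbia (1.33, SE 0.30, adjusted p = 0.0012). Tnfaip3 read 12.43, 14.20, 14.44, 14.96 and 13.24 in KO neutrophils and 9.98 to 13.37 (median 10.76) in KO macrophages, and the groups overlapped because KO macrophage 3 reached 13.37. Vegfa, a vascular growth factor, was lower (-1.01, adjusted p = 0.0108), and Icam1 (-1.07) and the checkpoint ligand Cd274 (-0.10) did not pass, although Icam1 passed without KO neutrophil 4, with each array centred on its median, with array weights, or with only the arrays compared in the fit (adjusted p from 0.0106 to 0.0479). The call of Vegfa ended with quantile normalization or without KO neutrophils 1 and 5 together (adjusted p from 0.0629 to 0.0951).

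Markers of cell types outside the gates were dim for some lists and brighter for others. Mast cell and basophil lists had means of 5.30 to 5.63 in KO neutrophils and 5.63 to 5.92 in KO macrophages. For erythroid markers they were 6.25 to 6.53 and 5.90 to 6.16, so both lists lay below 6.69. Over T cell, B cell, natural killer, neuron, astrocyte and oligodendrocyte lists, means per array lay between 4.13 and 6.09 in KO neutrophils and between 4.63 and 5.91 in KO macrophages, all below 6.69. The mean of 7 platelet markers was 8.50 to 9.07 in KO neutrophils and 8.14 to 8.82 in KO macrophages, and Gp9 (0.88, SE 0.16, adjusted p = 0.000118) and Gp6 (0.81, SE 0.19, adjusted p = 0.00189) were higher and Ppbp lower (-1.64, SE 0.62, adjusted p = 0.0411). The call of Ppbp ended without KO neutrophil 1, 2, 3 or 5 or KO macrophage 1, 3, 5 or 6, with quantile normalization, or without KO neutrophils 1 and 5 together (adjusted p from 0.0555 to 0.194). The mean of 12 endothelial markers was 6.96 to 7.18 in KO neutrophils and 7.61 to 7.74 in KO macrophages, without overlap. Lower were Ly6c1 (-2.87, SE 0.44, adjusted p = 1.13e-05), which monocytes also express, and Kdr (-1.60), Cdh5 (-1.26), Pecam1 (-0.90) and Flt1 (-0.56), with adjusted p from 0.00039 to 0.017 for these 4, the call of Pecam1 ending without KO neutrophils 1 and 5 together (adjusted p = 0.0869). Esam was higher (0.36, SE 0.12, adjusted p = 0.0263), a call that ended without KO neutrophil 1 or 5 or KO macrophage 5, with quantile normalization, with each array centred on its median, or without KO neutrophils 1 and 5 together (adjusted p from 0.0681 to 0.293). The part of such cells in other results was not tested. Dendritic cell markers were lower in KO neutrophils in 6 of 13 and higher in 2, and their mean was 5.79 to 6.26 in KO neutrophils and 6.49 to 7.15 in KO macrophages. Flt3 (-1.71, SE 0.27, adjusted p = 1.45e-05) was among the lower with Cd209a and Ccr7. Border-associated macrophage markers were lower in 5 of 12, among them Siglec1 (-2.01, SE 0.29, adjusted p = 3.46e-06) and the clotting factor F13a1 (-1.85, SE 0.40, adjusted p = 0.000653). Kit, the receptor of mast cells and precursors, was 7.09 to 11.31 in KO neutrophils against 10.55 to 11.48 in KO macrophages (-2.26, SE 0.75, adjusted p = 0.021), a call that ended without KO neutrophil 1 or 3 (adjusted p from 0.071 to 0.0756). The mast cell genes Cpa3, Mcpt4 and Tpsb2 had means of 5.49 to 6.90 in KO neutrophils and 5.33 to 7.38 in KO macrophages.

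Within KO neutrophils the spread was uneven across genes, with a median SD over all clusters of 0.285 in KO neutrophils and 0.277 in KO macrophages. Mmp12, the macrophage metalloelastase, read 15.27, 15.03, 15.69, 10.36 and 14.18 in KO neutrophils and 10.03 to 11.60 (median 10.71) in KO macrophages. KO neutrophil 4 lay within the macrophage range while the other 4 arrays were above 14, so the difference of 3.27 (SE 0.79, adjusted p = 0.00222) describes 4 arrays of 5. Plxdc2, a membrane protein (13.30, 14.96, 14.14, 8.76 and 12.94), and Sparc, a matrix protein (13.66, 14.70, 14.63, 9.23 and 13.50), were lowest in KO neutrophil 4 as well. Neither passed over all arrays (adjusted p = 0.0727 and 0.283), but Plxdc2 passed without KO neutrophil 4, with quantile normalization, or with array weights (adjusted p from 0.00115 to 0.0417) and Sparc without KO neutrophil 4 (adjusted p = 0.0123). That array had the lowest mean of homeostatic microglia markers of the 5, at 8.79, and the highest levels of Ltf, Ngp and Camp, and whether these go together was not tested. Cdr1 (12.06, 12.22, 10.63, 10.00 and 5.70) and Rtcb, an RNA ligase (12.40, 11.89, 11.90, 11.82 and 7.73), were lowest in KO neutrophil 5. Within KO macrophages the most variable genes included the immediate early gene Egr1, at 10.43 to 14.86 (median 11.10), the chemokine Ccl8, at 5.67 to 9.61 (median 6.98), and Tnf and Tnfaip3.

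Finally, the same difference was taken in WT cells, to see where the cell types differed otherwise with TREM1 present. WT neutrophils and WT macrophages share no arrays with the KO groups, and 11402 clusters (51.6%) were called between them. Of the 7008 clusters called in KO, 5450 were called in the same direction in WT, which is 77.8% of the KO calls and 47.8% of the WT calls, and 27 were called in the opposite direction. Across clusters the KO and WT differences had r = 0.80, where clusters are not independent replicates. A test of the difference itself called 1518 clusters (6.87%), 963 of them with a higher value in KO (4.36%) and 555 with a lower one (2.51%). Of the 963, 960 had a negative difference in WT, and 551 of these 960 were not called in KO. Since the tested value subtracts the WT difference, these counts are in part set by how the clusters were selected. With every array centred on its own median, the median of this difference moved by 0.17 and the calls to 1324 higher and 283 lower, 82.4% higher in place of 63.4%. The count was 631 with only the neutrophil and macrophage arrays in the fit. Leaving out 1 array gave 786 without WT macrophage 3, 827 without KO neutrophil 1, 919 without KO neutrophil 4, 2418 without KO neutrophil 5 and 2790 without WT neutrophil 1, and values within 1.5 times of 1518 otherwise. The median SD over clusters was 0.285 in KO neutrophils, against 0.378 in WT neutrophils.

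**Figure D4:**
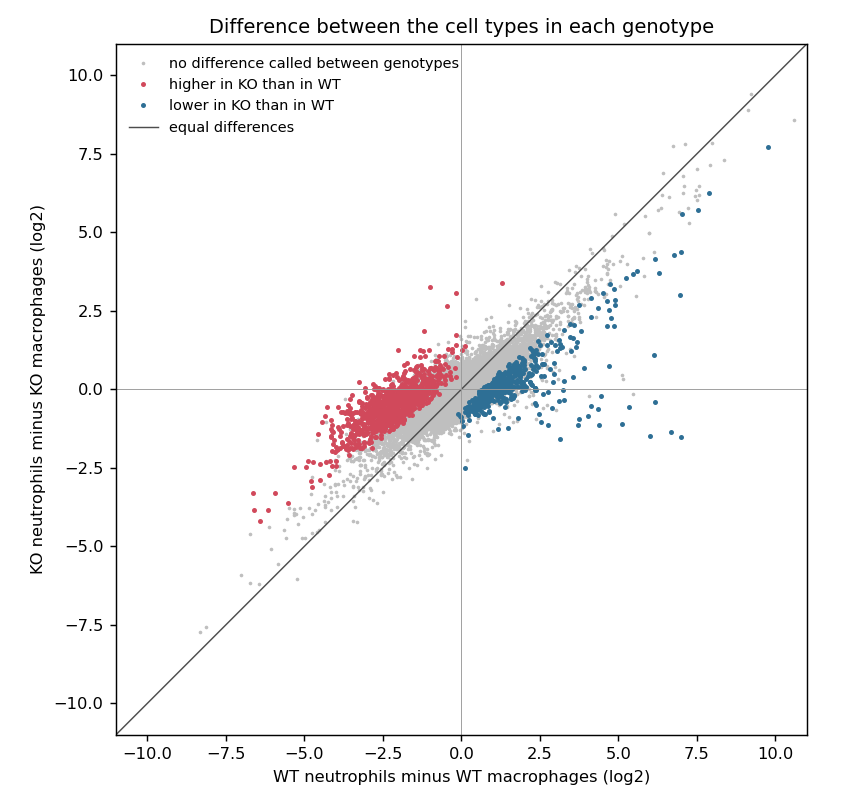
Difference between neutrophils and macrophages of every transcript cluster in KO (y axis, log2) against WT (x axis, log2), with clusters coloured where the 2 differences differed at an adjusted p under 0.05. Most clusters follow the line of equal differences, and 960 of the 963 clusters with a higher value in KO lie left of 0 on the WT axis. That side is in part set by the selection, which subtracts the WT difference.

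Genes that did not pass between the KO cell types were among those that differed between genotypes. For Mertk the difference was 0.05 in KO and -3.08 in WT, and they differed by 3.13 (SE 0.53, adjusted p = 0.00192). Mean levels of Mertk were 12.59 in KO neutrophils and 12.54 in KO macrophages, and 9.46 in WT neutrophils and 12.54 in WT macrophages. The WT neutrophil mean was the low one of the 4. Trem2 (2.66, adjusted p = 0.00299), Apoe (2.23, adjusted p = 0.0199), C1qb (2.84, adjusted p = 0.0155), the complement receptor C3ar1 (1.82, adjusted p = 0.00192), the scavenger receptor Stab1 (1.65, adjusted p = 0.00487) and the glycoprotein Gpnmb (2.17, adjusted p = 0.0491) had the same sign. The calls of Apoe ended without WT macrophage 2 or 3 or with only the arrays compared in the fit (adjusted p from 0.0535 to 0.0674), of C1qb without WT macrophage 2 or 3 or with only the arrays compared in the fit (adjusted p from 0.0578 to 0.0675) and of Gpnmb without WT neutrophil 2, 3 or 4, KO neutrophil 1, 3 or 4, WT macrophage 2 or 3 or KO macrophage 1, 2, 3, 4, 5 or 6, with quantile normalization, with only the arrays compared in the fit, or without KO neutrophils 1 and 5 together (adjusted p from 0.0509 to 0.161). In the lists, 9 of 21 phagocytosis genes, 12 of 22 lysosomal genes, 8 of 20 monocyte and macrophage markers, 12 of 26 ribosomal proteins and 9 of 27 genes of oxidative phosphorylation were called higher in KO, with none lower except 1 of the monocyte and macrophage markers. Over all clusters this test called 4.36% higher and 2.51% lower. With every array centred on its median it called 1324 higher and 283 lower, and the list counts here are from the uncentred fit. Of the class II genes H2-DMa (2.31, adjusted p = 0.00885), H2-DMb1 (2.76, adjusted p = 0.00746) and Ifi30 (1.96, adjusted p = 4.85e-05) were called, whereas H2-Ab1 (0.54, SE 0.71) and H2-Eb1 (0.62, SE 0.85) were not. Neutrophil markers went the other way, with 5 of 24 called lower in KO and none higher. Beside these stand the means of monocyte and macrophage markers on the neutrophil arrays, 13.08 to 13.57 in KO and 12.18 to 12.69 in WT, and the part of macrophages sorted with neutrophils was not tested.

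**Figure D5:**
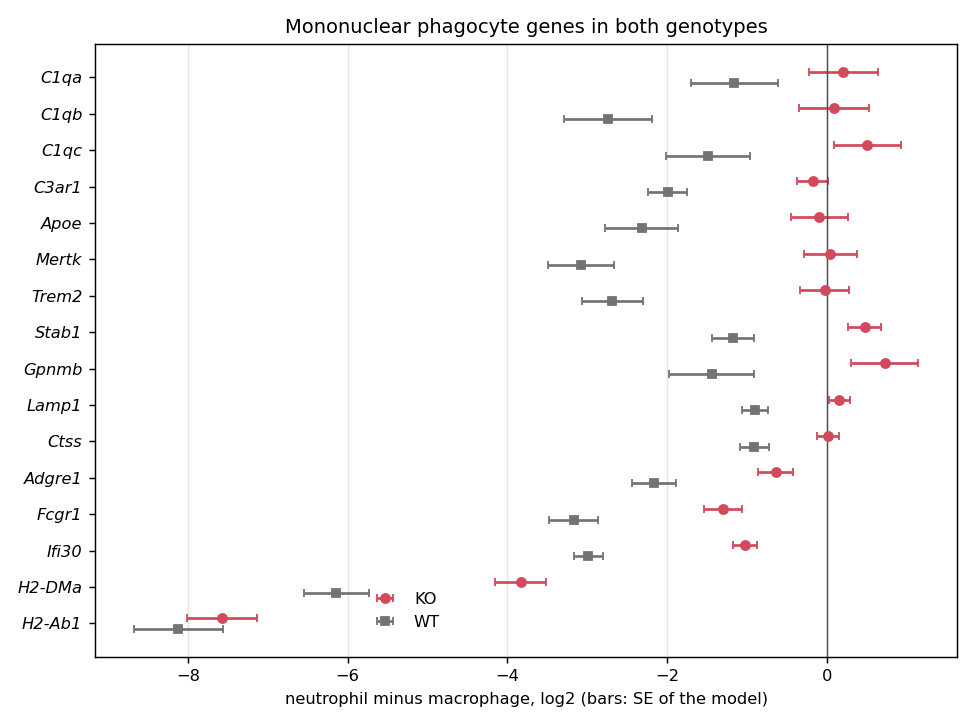
Difference between neutrophils and macrophages (x axis, log2, bars are the SE of the model) of 16 genes of mononuclear phagocytes in KO (circles) and WT (squares). Mertk, Trem2, Apoe and C1qb lie near 0 in KO and between -3.08 and -2.32 in WT, whereas H2-Ab1 lies below -7 in both.

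The largest single differences between genotypes were of another kind. The difference between cell types was higher in KO, that is more positive or less negative, for Mmp12 (4.27, adjusted p = 0.041), the RNA helicase Ddx18 (3.71, adjusted p = 0.015), Metap1d, a mitochondrial peptidase (3.49, adjusted p = 0.00248), Tmem229b (3.40, adjusted p = 0.00219), the sugar phosphate exchanger Slc37a2 (3.37, adjusted p = 0.0158) and the potassium channel Kcnn4 (3.34, adjusted p = 0.00342). The call of Mmp12 ended without WT neutrophil 2, 3 or 4, KO neutrophil 1, 2 or 3, WT macrophage 1 or 2 or KO macrophage 1, 3, 4 or 6, with quantile normalization, with only the arrays compared in the fit, or without KO neutrophils 1 and 5 together (adjusted p from 0.054 to 0.106), that of Ddx18 with only the arrays compared in the fit (adjusted p = 0.0725) and that of Slc37a2 with only the arrays compared in the fit (adjusted p = 0.0768). The 6 lowest were genes of cartilage and connective tissue: Cytl1 (-8.50, SE 1.74), the lubricin gene Prg4 (-8.03, SE 1.55), the proteoglycans Dcn (-7.50, SE 1.41) and Lum (-6.23, SE 1.40), Mxra8 (-5.91, SE 1.25) and the bone sialoprotein Ibsp (-5.52, SE 1.40). Their adjusted p lay between 0.00316 and 0.0173. WT macrophage means of Mxra8 (4.94) and Ibsp (6.00) lay below 6.69, as did WT neutrophil means of Metap1d (6.02) and Tmem229b (4.91). WT neutrophil arrays spread from 5.24 to 11.40 for Ddx18 and from 6.08 to 11.93 for Slc37a2. In KO the difference between neutrophils and macrophages did not pass for the 6 lowest, at -1.51 for Cytl1 (95% interval -3.71 to 0.70) and -1.49 for Dcn (95% interval -3.28 to 0.31). Dcn passed with only the arrays compared in the fit (adjusted p = 0.0385). Cytl1 averaged 12.12 in KO neutrophils, 13.63 in KO macrophages, 14.91 in WT neutrophils and 7.91 in WT macrophages. For all 6 genes the WT macrophage mean was the lowest of the 4 and the WT neutrophil mean the highest, and the KO and WT means lay farther apart in macrophages than in neutrophils. The matrix gene Sparc had the same lowest and highest group, at 8.22 in WT macrophages and 14.35 in WT neutrophils. Its difference between genotypes was -5.03 (limma, adjusted p = 0.0134). A list of 18 cartilage and connective tissue genes had a mean of 6.66 to 7.97 in KO neutrophils and 7.26 to 7.87 in KO macrophages. The mean was 7.68 to 10.42 in WT neutrophils, where WT neutrophil 4 was the highest. In WT macrophages, the lowest group, it was 5.64 to 6.62. The part of cartilage or connective tissue in the 6 differences was not tested.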

How the data were processed

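RNA was measured on 30 Affymetrix Clariom mouse arrays. The deposited intensities were background-corrected, normalized and summarised by the authors with RMA, per the submitters' processing notes, which name no version. They were linear, with no detection calls and no batch information, so background, scan and batch could not be checked. Which arrays were normalized together is not given in the sources used here and precision is set by how few arrays there are. Of 22103 transcript clusters, 19508 had 1 gene symbol in the platform annotation and 2595 had none.

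Intensities were log2-transformed without a pseudocount. One mean per genotype and cell type over all 30 arrays was fitted with limma 3.58.1 in R 4.3.3 (lmFit, contrasts.fit, eBayes, two-sided tests, Benjamini-Hochberg adjustment over all clusters), and standard errors and 95% intervals come from that fit. The code was tested on simulated data. A gene was read from its brightest cluster. Named were the 12 highest and 12 lowest called genes whose groups do not overlap and whose brighter group is at or above 6.69, up to 5 members with the smallest p of each of 46 lists (683 genes, 621 measured), and 6 genes in each direction for the difference between genotypes. Predicted and clone-named genes were left out. The members and lists were chosen with earlier results of these data known, and further genes, the class II and stefin promoters and the shared run were chosen after their values were seen. Dixon's test looked for an array far from the others of its group. Alternatives were array weights, quantile normalization, centring on the median, a robust prior with a variance trend, no dim clusters, 1 cluster per gene, only the arrays compared, a replicate block and each array left out. Leaving out KO neutrophil arrays 1 and 5 together was added after seeing the data.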

Additional observations from a re-analysis of the deposited data

Results flagged for a closer look

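In 142 tests of a named gene or list mean within 1 group, 6 found an array far from the others by Dixon's test at the 95% level, where chance gives about 1 in 20. S100a8 read 6.73 in KO macrophage 2, against 9.82 for the nearest macrophage array. Siglecf read 7.25 in KO macrophage 2, against 5.64 for the nearest. Vcan read 13.42 in KO macrophage 2, against 14.49 for the nearest. The mean of the neutrophil markers was 8.08 in KO macrophage 2, against 8.59 for the nearest. Ccr2 read 8.18 in KO neutrophil 2, against 11.01 for the nearest neutrophil array. The mean of the matrix proteases and inhibitors was 9.11 in KO macrophage 1, against 9.35 for the nearest. KO macrophage 2 thus held 4 of the 6, low for S100a8, Vcan and the neutrophil markers and high for Siglecf, and no explanation was tested.

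For other genes the difference between neutrophils and macrophages differed between KO and WT by the test of that difference (limma, adjusted p under 0.05). The values, KO minus WT, were 3.13 for Mertk, 2.66 for Trem2, 2.23 for Apoe, 2.84 for C1qb, 1.82 for C3ar1, 1.65 for Stab1 and 2.17 for Gpnmb. Among genes of lysosomes, IgG binding and antigen presentation they were 1.06 for Lamp1, 1.87 for Fcgr1, 1.96 for Ifi30, 2.31 for H2-DMa and 2.76 for H2-DMb1. The 6 highest genes had 4.27 for Mmp12, 3.71 for Ddx18, 3.49 for Metap1d, 3.40 for Tmem229b, 3.37 for Slc37a2 and 3.34 for Kcnn4. The 6 lowest had -8.50 for Cytl1, -8.03 for Prg4, -7.50 for Dcn, -6.23 for Lum, -5.91 for Mxra8 and -5.52 for Ibsp. For these 6 the WT macrophage mean was the lowest of the 4 groups, as at 13.22 in KO macrophages against 7.91 in WT macrophages for Prg4 and 12.24 against 7.69 for Dcn. The list mean of cartilage and connective tissue genes was 5.64 to 6.62 in WT macrophages, 10.42 in WT neutrophil 4 and between 7.68 and 8.31 in the other WT neutrophil arrays, and the part of such tissue in the 6 values was not tested.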

How the results depend on the processing

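The count of 7008 clusters called between KO neutrophils and KO macrophages lay between 5779 without KO neutrophil 5 and 6719 without KO neutrophil 1 when 1 array was left out, and between 5087 and 8506 over the other alternatives, all within 1.5 times. For the 318 genes followed through every alternative, 6076 of the alternative values kept their direction and their side of the threshold, 191 kept the direction and no longer passed, 66 newly passed and none reversed. The count of 1518 clusters for the difference between genotypes was less steady: 631 with only the arrays compared in the fit, 486 with the replicate block, and 786 to 2790 with 1 array left out. The cause was not tested. The fit of only the arrays compared and the fit with the block have 14 residual degrees of freedom in place of 24. Of 24 genes followed for that difference, 17 kept their call in every alternative run. The arrays were not treated as paired by replicate number. Deviations of KO neutrophil and KO macrophage arrays of 1 number correlated between -0.07 and 0.02, and no array correlated best with its own number. With so few arrays, this cannot show whether arrays of 1 number share a mouse. With the replicate block, 6496 clusters were called between the KO cell types. Under it, 9 of the 318 genes crossed the threshold out of the calls: Itgal, Itgb2, Kit, Cpa3, Pecam1, Cxcl5, Ltf, Ngp and Esam. Another 3 crossed into them: Tmem119, Il1rn and Icam1. For the difference between genotypes 6 of the 24 crossed out: Mmp12, Slc37a2, Ibsp, Apoe, C1qb and Gpnmb. Without detection calls, differences that involve a level below 6.69 are limited by background.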
